A study of Mus musculus with 6 samples.

Results

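The genes described here are 9 transcripts of muscle protein turnover, taken by gene symbol from a table of 18864 symbols: the ubiquitin ligases Trim63, Trim54, Trim55, Trim32, Fbxo32 and Fbxo30 and the transcription factors Foxo1, Foxo3 and Foxo4. RNA was sequenced from cultures of satellite cells, which are muscle stem cells, isolated from the gastrocnemius of C57Bl/6 mice (the strain entry of the labels reads C56Bl/6) and moved to differentiation medium. One group of 3 cultures was grown for 24 h in 0.25% beta-aminopropionitrile (BAPN), which irreversibly inhibits lysyl oxidases, the enzymes that cross-link the fibres of the extracellular matrix. The other group of 3 was grown without it, and all 6 stood on 4% matrigel. The labels give the mice as 8 weeks old in one place and 6 in another, and the medium with 4% horse serum or 10% fetal calf serum. The series text calls the replicates independent, and nothing in the labels says which mouse or mice each culture came from.

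Skeletal muscle breaks down its own proteins largely by marking them with ubiquitin, a small protein tag that sends them to the proteasome. The ligases choose what is tagged. MuRF1, MuRF3 and MuRF2 (Trim63, Trim54 and Trim55) are RING-finger ligases of the sarcomere, while atrogin-1 and MUSA1 (Fbxo32 and Fbxo30) are F-box proteins that bring targets to the SCF ligase complex. FOXO factors switch on several of these ligases when they are in the nucleus, and the kinase AKT, downstream of insulin and IGF-1, keeps them out of it by phosphorylation. Phosphorylation was not measured, so the values below are transcript levels only.

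Total counts per library were between 17125602 and 18617656 with BAPN and between 18335559 and 18682099 in controls. Values are the authors' normalized counts, the count divided by a size factor of the library. Replicates 1 and 2 lay close together in both groups: across genes, the chi-square per gene between them was 2.1 with BAPN and 2.28 in controls, above the sampling noise of 1, whereas replicate 3 differed from either by 19.7 to 22. RNA integrity numbers were mostly above 8.1, and the labels do not say which 2 samples were below 7.5. All 10 myogenic markers were detected, and their summed normalized count was 213738 to 263142 with BAPN and 431795 to 573179 in controls, with 8 of the 10 lower and 0 higher with BAPN in the test described below. Sums of markers of other cell types were smaller. Fibroblast markers (9 in the table) summed to 4112 to 5002 with BAPN and 6886 to 8717 in controls, Schwann cell markers (7) to 3547 to 4792 with BAPN and 5667 to 7666 in controls, and markers of smooth muscle and pericytes (8, among them Des, which muscle cells also express) to 44439 to 49313 with BAPN and 63644 to 79255 in controls. Macrophage and leukocyte markers (8) came to 320.1 to 459 with BAPN and 184 to 282 in controls. Among them Cd68 and Cd14 were higher in that test (log2 fold change 2.32 and 1.81) and Itgam lower (-1.10). Lyz2 (-1.14) was not called, and Ptprc, Adgre1, Csf1r and Fcgr1 had mean normalized counts under 10. Endothelial markers (8) came to 259 to 310.1 with BAPN and 220.0 to 268 in controls. Adipocyte markers (8, with Cidec at 0 in every library) came to 133 to 171 with BAPN and 152 to 204 in controls. In bulk samples, fewer cells of a type and less RNA per cell cannot be told apart, and the part of these marker differences in the results below was not tested.

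All 9 genes passed the filter on low counts, a mean normalized count of at least 10, which left 13716 genes. With BAPN, Fbxo32 and Foxo3 rose, Trim55 and Foxo4 fell, and the other 5 were not called at an adjusted p under 0.05 (edgeR's quasi-likelihood test, Benjamini-Hochberg adjustment over all 13716 genes). Over all genes 15.6% were called higher and 20.8% lower, 36.4% in all, so 4 calls among 9 genes is a share near that of the whole table. Every BAPN library was above the controls for both F-box genes, the called FOXO genes differed in direction, and no change reached 2-fold. The BAPN libraries lay wholly above the controls for 4 members and wholly below them for 2, against 22.4% and 28.5% of all genes and 50.9% in either direction. Titles number the replicates alike in both groups, and when that number was added as a block, 3 members were higher and 3 lower, against 20.3% and 27% of all genes.

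The member counts moved with the scaling and with the libraries used, as did those of the whole table. With TMM scaling 2450 genes or 17.9% were higher and 17.4% lower, with median-ratio scaling 17.2% and 18.1%, with upper quartile scaling 17.7% and 17.7%, in DESeq2 16.7% and 17.2%, and in limma-voom 17.7% and 17.4%. Under each of these 5 settings 1 member, Trim55, was lower, and 2 or 3 were higher, Fbxo30 being called with TMM or upper quartile scaling and in DESeq2. With replicates 1 and 2 of each group summed, 5.22% and 5.9% of genes and 1 and 0 members were called. Without both libraries of replicate 3, 23.6% and 31.1% of genes and 4 and 4 members were, and with scaling by total counts 24.7% and 11% of genes and 5 and 1 members.

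**Figure D1:**
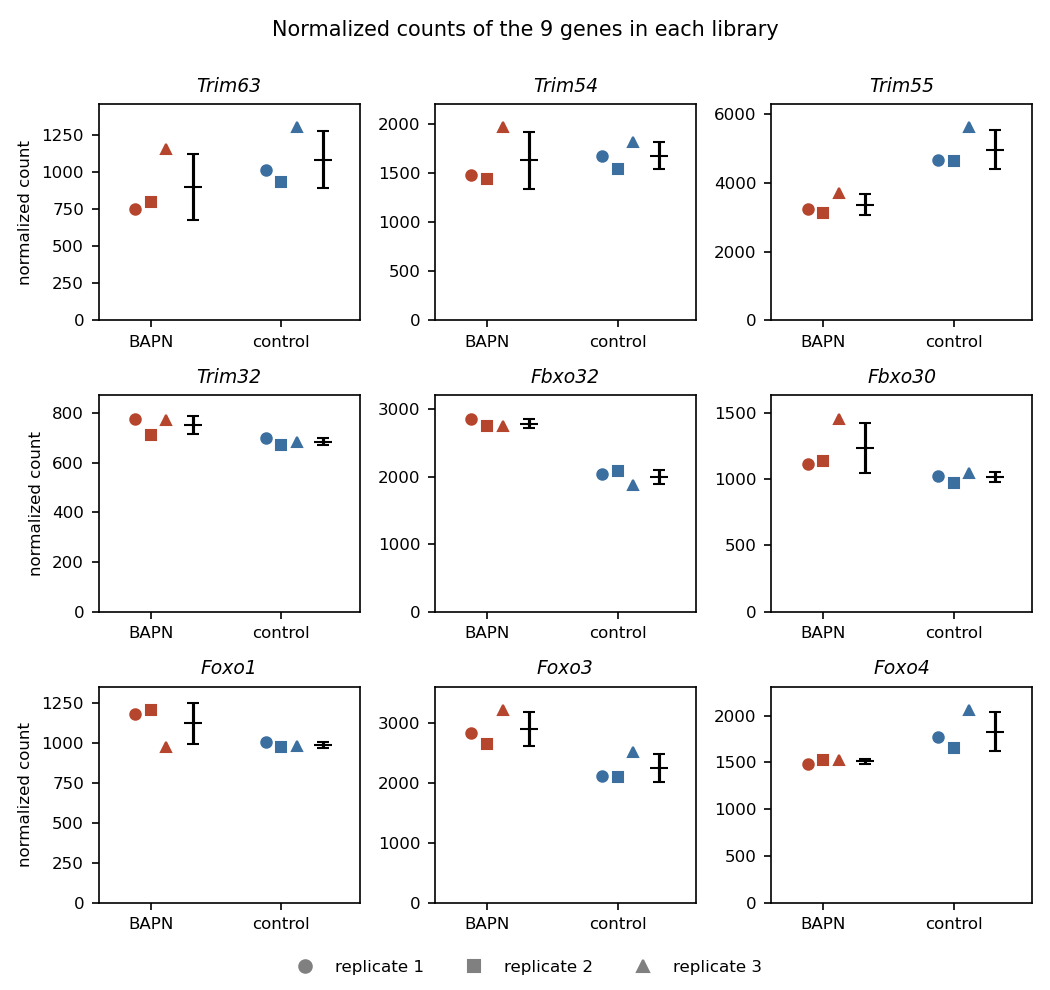
Normalized counts of the 9 genes (y axis, from 0) in the 3 BAPN and 3 control libraries, with symbols for replicates 1 to 3 and the mean ± SD in black beside each group. The groups are apart for Trim55, Trim32, Fbxo32, Fbxo30, Foxo3 and Foxo4 and overlap for Trim63, Trim54 and Foxo1.

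Among the MuRF ligases, MuRF2 fell and the others were not called. Trim55 (chromosome 3, 19644474 to 19692421 in GRCm38), which binds titin and microtubules during sarcomere assembly, had normalized counts of 3256, 3142 and 3712 with BAPN, against 4662, 4639 and 5621 in controls. Every BAPN library was lower than every control. The mean was 3369.9 ± 301 with BAPN and 4974 ± 560.4 in controls (± SD, 3 libraries each). The log2 fold change was -0.56 (SE 0.10, adjusted p = 0.0041, edgeR), and the pairs of equal replicate number gave -0.52, -0.56 and -0.60. Trim55 was called under every alternative except the one with replicates 1 and 2 summed into a single library (adjusted p = 0.052, edgeR).

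MuRF1 was lower in each pair but varied as much between replicates as between groups. Trim63 (chromosome 4, 134315120 to 134329629), the ligase that marks myosin and other thick-filament proteins, had 748, 795 and 1156 with BAPN, against 1012, 935 and 1299 in controls. Replicate 3 was the highest in both groups, so the groups overlap although each BAPN library lies below the control of its own number. Its log2 fold change was -0.27 (SE 0.18, adjusted p = 0.29, edgeR), with means of 899.8 ± 223 with BAPN and 1082 ± 192 in controls (± SD, 3 libraries each). With the replicate block it was -0.28 (SE 0.07, adjusted p = 0.0094, edgeR), and it was also called without BAPN replicate 3 (-0.49, adjusted p = 0.027, edgeR). Leaving out BAPN replicate 1, BAPN replicate 2 or the third control brought it to -0.15, -0.18 and -0.12 (adjusted p in edgeR of 0.6, 0.55 and 0.65), and scaling by total counts to -0.11.

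MuRF3, which stabilises microtubules and binds the other MuRF proteins, showed no clear direction. Trim54 (chromosome 5, 31116712 to 31137630) had 1481, 1446 and 1966 with BAPN, against 1669.9, 1546 and 1821 in controls, so that BAPN replicate 3 was the highest of the 6 libraries and BAPN replicate 2 the lowest. Trim54 had a log2 fold change of -0.04 (SE 0.12, adjusted p = 0.82, edgeR), and its sign depended on the scaling: it was 0.11 with scaling by total counts. Trim54 shares exonic sequence with Gm15469 on the opposite strand, as Fbxo32 does with Gm15943 and Foxo1 with Gm20402, and no strand setting is stated for the counts.

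The MuRF genes made up different shares of their family in the BAPN and control libraries. Per kilobase of exon, Trim55 was the most abundant of the 9 genes at 1267 ± 113 normalized counts with BAPN and 1871 ± 211 in controls (± SD, 3 libraries each), Trim54 followed at 1136 ± 202 with BAPN and 1169 ± 95.8 in controls, and Trim63 reached 317 ± 78.6 with BAPN and 381 ± 67.5 in controls. These per-length levels assume reads along the whole transcript, which the labels do not state. Trim55 made up 48.6%, 47.9% and 44.0% of the family's summed per-length level with BAPN, against 53.6%, 55.4% and 55.1% in controls. Trim54 made up 40.9%, 40.8% and 43.2% with BAPN, against 35.5%, 34.2% and 33.03% in controls. Both shares are apart in all 6 libraries (exact permutation test, two-sided p = 0.1, the smallest that 3 against 3 allows), with mean differences of -7.84 and 7.38 percentage points. Shares of a family add up to its whole, so the rise of the Trim54 share largely mirrors the fall of the Trim55 share. Trim54 itself had a log2 fold change of -0.04 (adjusted p = 0.82, edgeR). With all exons as length, Foxo4 followed Trim54 in controls, between 475 and 592 and above every library of the genes after it. With the longest transcript as length, the control means of Foxo4 and Trim63 were 579 and 574, so their separation depends on the length used. With all exons as length the next levels overlapped in part: Trim63 lay between 329 and 457, Foxo3 between 277 and 331 and Fbxo32 between 269.5 and 299. The share of Trim63 averaged 11.5% with BAPN and 11.1% in controls and overlapped (exact permutation p = 0.6).

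**Figure D2:**
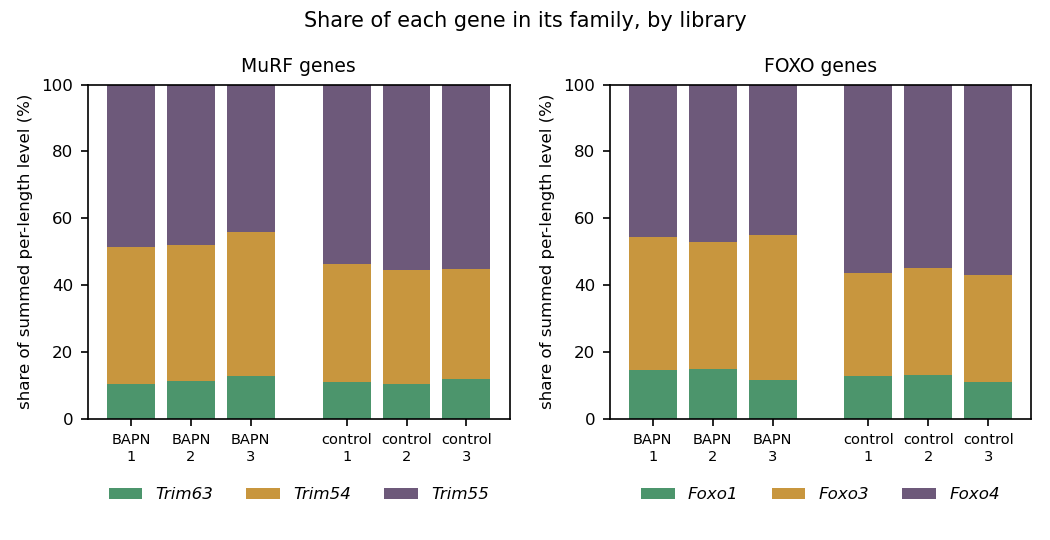
Share of each gene (y axis, percent) in the summed per-length level of the MuRF genes (left) and the FOXO genes (right), one bar for each library, BAPN libraries left of controls. The Trim55 share is 44.0% to 48.6% with BAPN and 53.6% to 55.4% in controls, and the Foxo4 share is 44.9% to 47.2% with BAPN and 54.9% to 57.1% in controls.

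Promoter sequence is shown for MuRF1, a classical FOXO target, and for MuRF3, the other MuRF gene with an entry in the promoter table. Both windows run from 250 bases before to 50 after the RefSeq start in GRCm38.p6, on the plus strand, chr4:134314870-134315169 for Trim63 and chr5:31116362-31116661 for Trim54. Capitals mark matches on either strand to the FOXO core GTAAACA, the glucocorticoid receptor element AGAACA (1 arm of its full site) and the E-box CANNTG, which myogenic factors bind.
Trim63: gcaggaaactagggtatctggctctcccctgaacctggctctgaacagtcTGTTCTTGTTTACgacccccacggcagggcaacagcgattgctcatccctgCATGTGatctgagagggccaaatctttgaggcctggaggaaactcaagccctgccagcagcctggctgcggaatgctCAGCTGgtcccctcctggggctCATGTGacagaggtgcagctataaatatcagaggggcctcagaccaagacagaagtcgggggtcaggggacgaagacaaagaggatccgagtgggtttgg
Trim54: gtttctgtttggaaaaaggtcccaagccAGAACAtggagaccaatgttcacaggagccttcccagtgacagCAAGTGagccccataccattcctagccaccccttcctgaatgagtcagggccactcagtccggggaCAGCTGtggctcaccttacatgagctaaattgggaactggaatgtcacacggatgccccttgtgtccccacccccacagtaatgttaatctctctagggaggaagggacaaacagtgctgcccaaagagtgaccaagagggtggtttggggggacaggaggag
The Trim63 window holds 1 FOXO core, read on the opposite strand as TGTTTAC at positions -194 to -188 from the start, directly beside 1 AGAACA read as TGTTCT at -200 to -195, with no overlap between them, and 3 E-boxes. The Trim54 window holds 0 FOXO cores, 1 AGAACA and 2 E-boxes. Of 32851 promoter windows in the table, 3.65% hold the FOXO core, 19% AGAACA and 72.3% at least 1 E-box, and 17.6% hold 3 or more E-boxes. Windows were found for 6 of the 9 genes, and of these only Trim63 holds the FOXO core. The windows of Fbxo30 and Foxo3 have 0 matches to any of the 3 motifs and a GC content of 79.7% and 75%. Foxo1 and Trim32 have 1 E-box each. No window was matched for Fbxo32, Trim55 and Foxo4. A match is a string of letters, and whether any factor acts through it was not tested.

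Trim32 is a ligase of the same TRIM family that acts on desmin and other proteins of thin filaments and Z-bands and is mutated in a limb-girdle muscular dystrophy. Trim32 (chromosome 4, 65604986 to 65616238) had 777, 712 and 771 with BAPN, against 699, 672 and 682 in controls. The BAPN libraries were all above the controls, by a narrow margin. The log2 fold change was 0.14 (SE 0.07, adjusted p = 0.14, edgeR), and the gene was called under 1 of the 17 alternatives, scaling by total counts (0.29, adjusted p = 0.018, edgeR).

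Atrogin-1 rose, with the smallest adjusted p of the 9 genes. Fbxo32 (chromosome 15, 58175879 to 58214932), whose known targets include MyoD and the translation factor eIF3f, had 2861, 2751 and 2746 with BAPN, against 2035, 2083 and 1880.2 in controls. The lowest BAPN library exceeded the highest control, and the spread within each group was small. Its mean was 2786 ± 65.2 with BAPN and 1999 ± 106 in controls (± SD, 3 libraries each). That is a 1.39-fold difference (log2 fold change 0.48, SE 0.06, adjusted p = 0.0012, edgeR), with pairs of 0.49, 0.40 and 0.55. Fbxo32 was called under all 17 alternatives, with log2 fold changes from 0.44 to 0.63 and adjusted p between 1.4e-09 and 0.035.

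MUSA1, the F-box protein that BMP signalling is known to hold down, was not called, although it was higher in each pair. Fbxo30 (chromosome 10, 11281330 to 11298052) had 1111, 1139 and 1456 with BAPN, against 1025, 971 and 1042 in controls. All 3 BAPN libraries were above the controls, and BAPN replicate 3 stood well above the other two. Fbxo30 had a log2 fold change of 0.29 (SE 0.11, adjusted p = 0.07, edgeR), or 0.28 with the replicate block (adjusted p = 0.014, edgeR), and 0.15 without BAPN replicate 3 (adjusted p = 0.083, edgeR). The authors' deposited table lists Fbxo30 with a log2 fold change of 0.2779 and an adjusted p of 0.0242. There, 3 of the 9 genes are higher and 2 lower at 0.05, the calls above and Fbxo30. The share of all genes called by the authors was not counted, so these numbers have no background beside them.

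Fbxo32 and Trim63 are the pair most used as a readout of atrophy. The log2 ratio of their normalized counts, Fbxo32 over Trim63, was 1.93, 1.79 and 1.25 with BAPN, against 1.01, 1.16 and 0.53 in controls. Each BAPN library exceeded every control, with means of 1.66 ± 0.36 with BAPN and 0.90 ± 0.33 in controls (± SD, 3 libraries each), a difference of 0.76 (exact permutation test, two-sided p = 0.1, the smallest possible). This ratio does not depend on the scaling of the libraries, and in both groups its lowest value was that of replicate 3.

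**Figure D3:**
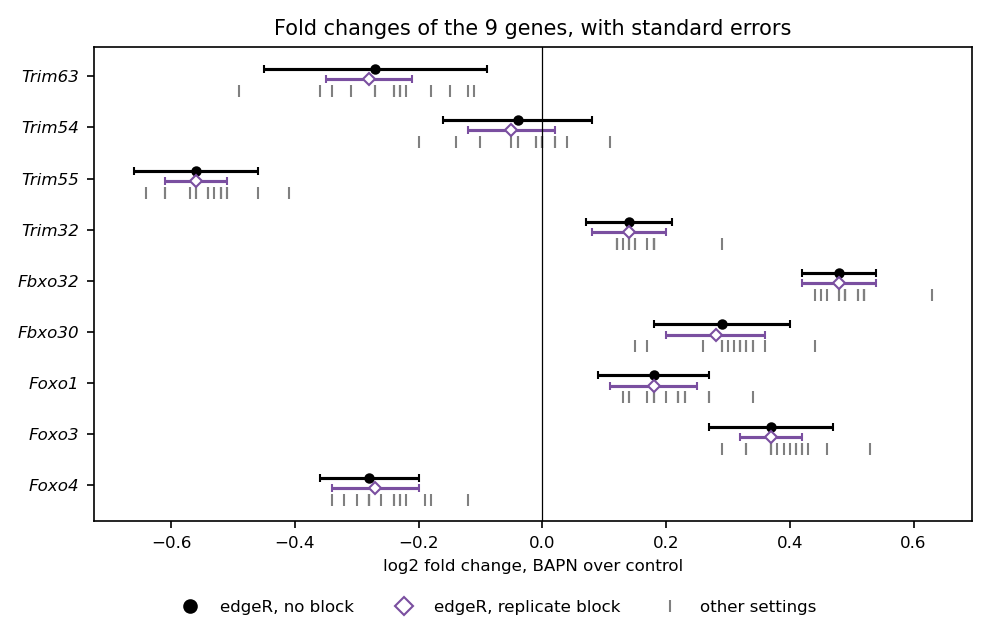
Log2 fold change, BAPN over control (x axis), of the 9 genes, with SE bars for edgeR without a block (black circles) and with the replicate block (open diamonds); grey ticks are the other 16 alternatives. Fbxo32 (0.48) and Foxo3 (0.37) lie right of 0 and Trim55 (-0.56) and Foxo4 (-0.28) left of it under every setting drawn, and Trim54 straddles 0.

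The FOXO factors went in opposite directions. Foxo3 (chromosome 10, 42181841 to 42276755), the factor best known for driving atrogin-1 and autophagy genes in muscle, had 2822, 2649.7 and 3212 with BAPN, against 2108, 2099.7 and 2509 in controls. The groups did not overlap, and replicate 3 was the highest in both. Its mean was 2895 ± 288 with BAPN and 2239 ± 234 in controls (± SD, 3 libraries each). The log2 fold change was 0.37 (SE 0.10, adjusted p = 0.021, edgeR). Pairs gave 0.42, 0.34 and 0.36, and with the replicate block the adjusted p was 4.2e-04. The call was lost when BAPN replicate 1 (adjusted p = 0.051, edgeR), the first control (0.081) or the second (0.075) was left out, and with replicates 1 and 2 summed (0.13).

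Foxo4, the X-linked member (101254528 to 101260873), fell by a smaller amount. It had 1486, 1525 and 1524 with BAPN, against 1774, 1656 and 2063 in controls. The BAPN libraries were nearly equal to each other and below all controls, whose highest was replicate 3. Its log2 fold change was -0.28 (SE 0.08, adjusted p = 0.035, edgeR), with means of 1512 ± 22.5 with BAPN and 1831 ± 209 in controls (± SD, 3 libraries each). This call was not made with TMM (adjusted p = 0.065, edgeR) or the other scalings, nor in DESeq2 (DESeq2 adjusted p = 0.081), and leaving out any library except BAPN replicate 3 and control replicate 2 ended it (edgeR adjusted p between 0.054 and 0.1), the value being -0.18 without the third control.

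Foxo1 (chromosome 3, 52268336 to 52353221), which also represses myogenic differentiation when active, was not called. It had 1185, 1208 and 976 with BAPN, against 1009.7, 977 and 980.4 in controls. BAPN replicates 1 and 2 were above all controls, and BAPN replicate 3 was the lowest of the 6 libraries. The log2 fold change was 0.18 (SE 0.09, adjusted p = 0.14, edgeR), and 0.27 without BAPN replicate 3 (adjusted p = 0.0077, edgeR). It was also called with scaling by total counts, with all 6 libraries (0.34, adjusted p = 0.031, edgeR).

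Per kilobase of exon, Foxo4 was the most abundant FOXO gene, at 434 ± 6.46 normalized counts with BAPN and 525 ± 60.1 in controls, then Foxo3 at 382 ± 38.1 with BAPN and 296 ± 30.9 in controls, then Foxo1 at 129.6 ± 14.7 with BAPN and 114 ± 2.09 in controls (± SD, 3 libraries each). With BAPN these levels of Foxo3 and Foxo4 lay next to each other, the highest Foxo3 library reaching 424.3 and the lowest Foxo4 library 426.3. With the longest transcript as length, their means with BAPN were 423 and 478. Foxo3 made up 39.8%, 37.8% and 43.6% of the family's summed level with BAPN, against 30.8%, 32.1% and 32.0% in controls. Foxo4 made up 45.6%, 47.2% and 44.9% with BAPN, against 56.3%, 54.9% and 57.1% in controls. Neither share overlapped between groups, and the mean differences were 8.77 and -10.2 percentage points (exact permutation test, two-sided p = 0.1 for each). As shares of one whole, these differences are not independent of each other. Foxo6, a FOXO gene outside the 9 and low in these cells, had 109.6, 109.9 and 161 normalized counts with BAPN, against 263, 248 and 308 in controls (log2 fold change -1.11, SE 0.17, adjusted p = 0.0025, edgeR).

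Genes that FOXO factors are known to switch on were higher in large part. Of 42 listed, 41 were in the table and 38 passed the filter, and 22 of these rose and 2 fell, with a median log2 fold change of 0.38, against -0.03 over all genes tested and the 15.6% and 20.8% called. The pair medians were 0.40, 0.39 and 0.41. Mxi1, a MYC antagonist, had 1056 ± 76.2 normalized counts with BAPN and 244.5 ± 7.97 in controls (± SD, 3 libraries each; log2 fold change 2.11, adjusted p = 2.1e-05, edgeR). Irs2, an adaptor of the insulin receptor, rose by 1.23 and Bcl2l11, the pro-apoptotic protein BIM, by 1.08 on the log2 scale (in edgeR, adjusted p = 1.4e-04 for each). The mitophagy receptors Bnip3 and Bnip3l (1.76 and 0.95), Ccng2 (0.99), Sesn2 (0.85) and Pdk4 (0.51) rose as well. Several of these, such as Mxi1, Bnip3 and Bnip3l, are also targets of hypoxia-inducible factor. The cell cycle inhibitor Cdkn1a and the repressor Bcl6 fell (-0.58 and -0.25), and Sesn3, Gadd45a, Sod2 and Txnip were not called (-0.19, -0.14, -0.08 and 0.07). The counts were 14 and 1 after summing replicates 1 and 2, where 5.22% and 5.9% of all genes were called. With BAPN replicate 3 left out the counts were 20 and 6. Leaving out BAPN replicate 1, BAPN replicate 2 or the second control gave 19 and 1 each.

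The signalling genes that act on FOXO factors went both ways. Of 36, 11 rose and 11 fell, against 15.6% and 20.8% of all genes tested, with a median log2 fold change of -0.08. The kinase genes Akt1 and Akt2 were lower: Akt1 fell by 0.39 and Akt2 by 0.67 on the log2 scale (adjusted p in edgeR of 0.0021 and 0.0011), as did Mtor (-0.52, adjusted p = 0.001, edgeR). The ligands Igf1 and Igf2 fell (-2.01 and -0.74), while the receptors Igf1r and Insr rose (0.47 and 0.44). Pik3r1, the regulatory subunit of PI3 kinase, and Irs2 rose by 0.82 and 1.23 on the log2 scale (adjusted p in edgeR of 4.8e-04 and 1.4e-04), as did Sgk1, a kinase related to AKT (0.79). Irs2, Insr and Rictor stand in this list and in that of FOXO targets. After summing replicates 1 and 2, 5 rose and 5 fell, against 5.22% and 5.9% of all genes.

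Glucocorticoids are another known inducer of these ligases. Of 15 glucocorticoid response genes in the table, 14 passed the filter, 9 rose and 0 fell, with a median of 0.60. Over all genes tested 15.6% rose and 20.8% fell, with a median of -0.03. Ddit4, an inhibitor of mTORC1, the metallothionein Mt2 and Sgk1 had the smallest p, at 0.93, 1.20 and 0.79 on the log2 scale (in edgeR, adjusted p = 1.4e-04, 3.1e-04 and 0.003). The receptor gene Nr3c1 rose (0.60, adjusted p = 0.01, edgeR), whereas Fkbp5, a much used marker of receptor activity, had -0.31 (adjusted p = 0.072, edgeR). Summing replicates 1 and 2 left 3 higher and 0 lower, against 5.22% and 5.9% of all genes.

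**Figure D4:**
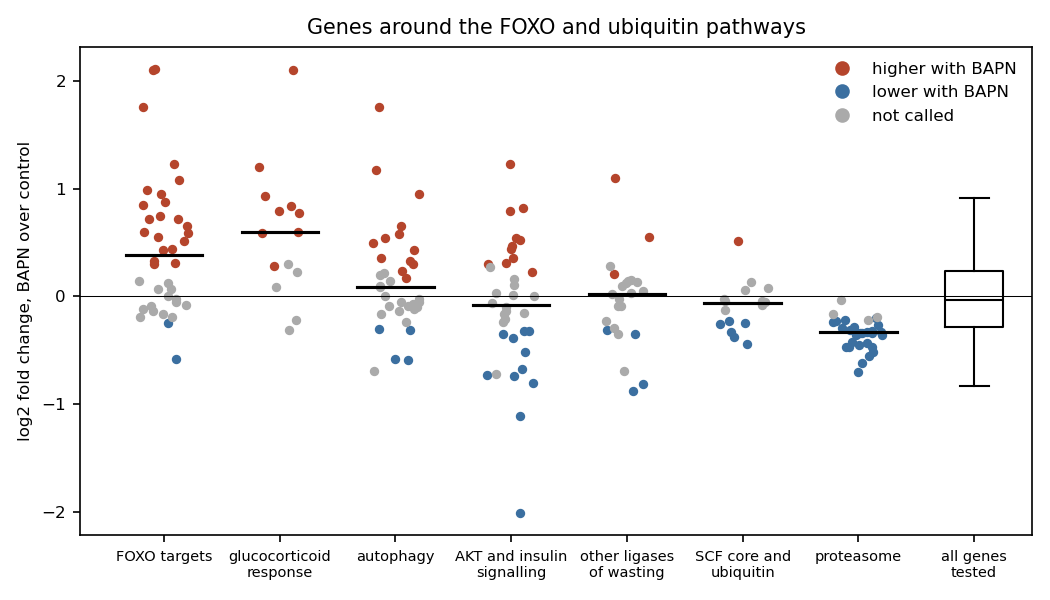
Log2 fold change, BAPN over control (y axis), of each tested gene in 7 lists (points: red higher, blue lower, grey not called; black line: median), beside the 5th, 25th, 50th, 75th and 95th percentiles of all 13716 genes. The medians are 0.38 for FOXO targets, 0.60 for glucocorticoid response and -0.33 for the proteasome.

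Genes of the proteasome, which degrades the tagged proteins, fell. Of 31 subunit genes, all in the table and tested, 0 rose and 27 fell, against 15.6% and 20.8% of all genes. The median log2 fold change was -0.33, with pair medians of -0.39, -0.32 and -0.32. Psmc3, Psmc4 and Psmd6, ATPase and lid subunits of the regulatory particle, had -0.70, -0.52 and -0.62 (edgeR adjusted p = 4.0e-04, 7.5e-04 and 7.8e-04). Catalytic subunits Psmb5, Psmb6 and Psmb7 fell too (-0.47, -0.55 and -0.47), and Psmd4, Psmd11, Psmd14 and Psmc6 were the 4 not called. When replicates 1 and 2 were summed 6 fell, against 5.9% of all genes. With scaling by total counts 15 did, against 11%.

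In the rest of the ubiquitin pathway the list medians were nearer to 0. Of 16 genes of the SCF core, ubiquitin and its enzymes, 1 rose and 6 fell, with a median of -0.06. Over all genes tested 15.6% rose and 20.8% fell. Rbx1 and Skp1a, which form the SCF complex with cullin 1, fell (-0.33 and -0.23), as did the conjugating enzyme Ube2n (-0.44, adjusted p = 0.005, edgeR). Leaving out BAPN replicate 2 left 2 of the 16 lower, against 13.6% of all genes. Without control replicate 1 or control replicate 2, 3 were lower, against 14.8% and 16%. With scaling by total counts 4 rose and 1 fell, against 24.7% and 11%. Of 23 other ligases and adaptors linked to muscle wasting, 3 rose and 4 fell, with a median of 0.02. With the replicate block 4 rose and 8 fell, against 20.3% and 27% of all genes. For these 23 genes, the shares without the block are no higher than the 15.6% and 20.8% called over all genes. Zfand5, a ubiquitin-binding protein induced in atrophy, rose (0.55, adjusted p = 0.002, edgeR), and so did Fbxo40, a muscle F-box protein that acts on IRS1 (1.10, adjusted p = 0.026, edgeR). The sarcomere-linked adaptor Klhl41 and the muscle ligase subunit Asb2 fell (-0.88 and -0.81, adjusted p in edgeR of 0.0017 and 0.0028). The number higher among the 23 was 1 without control replicate 1 or control replicate 2, against 10.7% and 11.4% of all genes. With scaling by total counts 7 rose and 3 fell, against 24.7% and 11%.

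Autophagy, the other route of protein breakdown that FOXO3 is known to serve, had 13 genes higher and 4 lower of 35, with a median of 0.09. Over all genes tested, 15.6% were higher and 20.8% lower. Nbr1 and Sqstm1, cargo receptors that MuRF proteins meet on titin, rose (0.50 and 1.17, adjusted p in edgeR of 8.8e-04 and 0.0029), as did Gabarapl1 and Map1lc3b (0.65 and 0.33), and Map1lc3a and Tfeb fell (-0.31 and -0.58). The number lower was 1 when BAPN replicate 1 or BAPN replicate 2 was left out, 6 without the third BAPN library and 2 without the first control. Once replicates 1 and 2 were summed, 6 rose and 0 fell, against 5.22% and 5.9% of all genes. With scaling by total counts 16 rose and 1 fell, against 24.7% and 11%. Among 34 reported substrates and partners of the ligases, 5 rose and 17 fell, against the same 15.6% and 20.8%. Many of them are sarcomere genes, and their median was -0.50. That median was -0.31 when the third control was left out, and summing replicates 1 and 2 gave 3 higher and 6 lower. Myod1, a target of atrogin-1, and Des, a target of Trim32, fell (-0.53 and -0.55, adjusted p in edgeR of 0.0085 and 0.0054). Actn3 had -1.45, while Ndrg2, which Trim32 is reported to bind, rose by 1.66 on the log2 scale (adjusted p in edgeR of 5.1e-04 and 9.7e-05).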

How the data were processed

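The authors deposited, per the file headers, a table with raw counts and normalized counts for each library (a signal: the count over a library size factor). Beside them stand the authors' own log2 fold change, their fold as a signed score, and their p-values, raw and adjusted. The submitters' processing notes name the tools STAR, HTSeq, DESeq2 and cutadapt and the build GRCm38 (mm10). Their versions, the annotation and whether strand was used in counting are not given in the sources. Reads were single, 60 nt, per the labels. The authors' mean differs by over 10% from the mean of the 6 libraries for 8738 genes. The second file holds the same normalized counts (largest difference 0).

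Counts were tested in edgeR 4.0.16 (R 4.3.3; glmQLFit, glmQLFTest) across the 13716 genes whose mean normalized count reached 10, scaled by the authors' size factors, without a block, and adjusted by Benjamini-Hochberg at 0.05. The fit was tested on simulated counts of 13605 genes, 100 of them set to differ 1.5-fold and 97 set to differ 2-fold. It called 48% and 77.3% of these in the right direction, and 7 unchanged genes. A gene not called may thus still differ. Far fewer genes differed in the simulation than were called here. DESeq2 1.42.0 and limma 3.58.1 (voom) were alternatives, as were other scalings and filters, the block, and left-out or summed libraries. Fold changes are edgeR estimates, BAPN over control. Since the source animals of the cultures are not stated, each p-value reflects the spread among these 3 and 3 libraries, which may be technical.

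Samples with the same number were treated as pairs in the blocked fit, and the labels do not say what the number marks. Their deviations from the group means correlated at 0.184, 0.191 and 0.366 across genes. BAPN replicate 1 correlated at 0.229 with control replicate 2, and BAPN replicate 2 at 0.105 with control replicate 1. These values set replicate 3 apart but do not show which libraries of replicates 1 and 2 belong together.

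Positions and exon lengths come from GENCODE M21 (GRCm38), not stated to be the annotation used for the counts. Promoters come from RefSeq (GRCm38.p6). The members and lists were chosen with earlier results of these data known. Named by rule were the 9 members, the 3 called genes with the smallest p in each list, the 3 largest and 3 smallest fold changes among called Trim and F-box genes averaging 100 or more in a group, and the 3 genes closest in profile to each of 6 members; others were chosen after their values were seen. In the glucocorticoid list 1 name is an older symbol of Ddit4 and was not counted. How reads shared by near-identical copies, such as ubiquitin genes, were counted is not stated. Some genes named by this rule are not reported here.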

Additional observations from a re-analysis of the deposited data

How the results depend on the processing

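Under the 17 alternatives, Fbxo32 was called in each, Trim55 in 16, Foxo3 in 13, Foxo4 and Fbxo30 in 6, Trim63 and Foxo1 in 3, and Trim32 and Trim54 in 1. All but Trim54 kept their direction. Trim54 had 0.00 with TMM scaling, 0.02 without BAPN replicate 1 or control replicate 3, 0.04 without BAPN replicate 2 (-0.20 to 0.04 over the left-out libraries) and 0.11 with scaling by total counts. With the replicate block, Trim63 (-0.28) and Fbxo30 (0.28) were also called, and no other member's call changed.

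Against 2140 genes higher and 2850 lower, there were 716 and 809 with replicates 1 and 2 summed and 1449 to 2317 and 1866 to 3119 with 1 library left out. The next settings were chosen after seeing the data. Without both libraries of replicate 3 there were 3224 higher and 4253 lower, and 4 and 4 members. Scaling by total counts gave 3384 higher and 1513 lower (69.1% of calls higher, against 42.9%), gave a median of all genes of 0.12 on the log2 scale, against -0.03, and called 5 members higher and 1 lower. Members called higher and lower numbered 2 and 2 in the fit reported. With replicates 1 and 2 summed they numbered 1 and 0, and with 1 library left out 1 to 3 and 1 to 3. With TMM, median-ratio or upper quartile scaling, DESeq2 or limma-voom, 1 member was lower.

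The mean share of Trim63 among MuRF genes was 0.46 percentage points higher with BAPN, and the difference was -0.19 without BAPN replicate 3. The other shares and the Fbxo32 to Trim63 ratio kept their sign. Of 62 other genes named by rule or in a family, 40 kept call and direction under every alternative and 0 reversed. The cause of these shifts was not tested. The lowest normalized count of any member was 672. Between replicates 1 and 2, 1 member with BAPN and 0 in controls differed by over 2 SD of counting error. Between replicate 3 and either of them, 5 to 7 members did. What lies behind the spread beyond counting error was not tested.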

Other observations

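Across the wider families, Trim and F-box genes were called in both directions, against 15.6% higher and 20.8% lower over all genes tested. Of 38 Trim genes tested, 9 rose and 4 fell, and the median log2 fold change was 0.08 (12 and 7 in the blocked fit). Of 60 F-box genes, 9 rose and 8 fell, and the median was 0.09 (14 and 11 in the blocked fit). In the fit without the block, the F-box share is close to that of all genes for higher calls and smaller for lower calls. The blocked fit called 20.3% and 27% of all genes, and scaling by total counts 24.7% and 11%. Under both of these settings the F-box share of higher calls is the larger, so its order depended on the setting. Trim66, a chromatin-binding family member, rose most, to 335 ± 119 normalized counts with BAPN, against 54.6 ± 4.71 in controls (SD, n = 3 each; log2 fold change 2.61, edgeR adjusted p = 4.6e-04). Trim46 (1.61) and the muscle gene Fbxo40 (1.10) came next among the called genes that averaged 100 or more in a group. Fbxo17 fell most, to 661 ± 48.4 with BAPN, against 2089 ± 226 in controls (-1.66, edgeR adjusted p = 8.4e-05), followed by Trim55 and Fbxw8 (-0.56 and -0.44). Trim56, the innate immune ligase, rose with little spread (0.69, edgeR adjusted p = 5.4e-04), as did Fbxl20 (0.46, edgeR adjusted p = 0.0028). With 1 library left out, between 6 and 11 Trim genes and between 5 and 8 F-box genes were higher, and between 1 and 8 and between 3 and 8 were lower. With replicates 1 and 2 summed, 3 Trim genes rose and 0 fell, and 1 F-box gene rose and 1 fell. Over all genes, 5.22% rose and 5.9% fell there. Scaling by total counts gave 13 Trim genes higher and 1 lower, and 21 F-box genes higher and 2 lower.

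Genes with the profile most like a member were found by the root mean square difference of centred log2 values over the 6 libraries, among 10159 genes with a mean of at least 100. Nearest to Fbxo32 were Zbtb1, Kif3c and 5031439G07Rik (differences of 0.011, 0.023 and 0.027). Nearest to Trim55 were Pja1, itself a RING-finger ligase, Tspan3 and Mpi (0.019, 0.031 and 0.033). For Foxo3 they were Ino80d, 8030462N17Rik and 9930021J03Rik (0.026, 0.041 and 0.041), and for Foxo4 Pick1, Dnajc4 and Tef (0.028, 0.029 and 0.029). Trim63 was closest to Ugp2, Gprc5c and Sema3c (0.041, 0.050 and 0.050), and Foxo1 to Eif4ebp2, Ikbip and Inpp5e (0.016, 0.029 and 0.031). With 6 libraries in 2 groups, such closeness is a description of these libraries.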
